A study of Homo sapiens with 6 samples.

Results

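The hepatic drug and bile transporter genes were read in PLC/PRF/5 cells, a human hepatocellular carcinoma line, from libraries labelled ZFP64-OE and libraries labelled control. Members were the protein-coding rows of the deposited count table whose symbols name an SLC22A, SLCO, SLC10A, SLC47A or SLC51 carrier, or an ATP-binding cassette (ABC) protein of subfamilies A to G. This rule, which uses no measured value, gave 89 of the 60623 rows, of which 19930 are protein-coding. Of the members, 40 were placed under uptake, 6 under canalicular export, 11 under basolateral and other export, 17 under lipid export, 9 under organelle transporters and 6 under ABC proteins that export nothing.

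The series asked what a change in ZFP64, a zinc-finger transcription factor, does to the transcriptome of these cells. Cells of the first group received a lentivirus made to overexpress ZFP64 and gave 3 libraries, and cells of the second received a control lentivirus, the empty vector of the line name PLC/PRF/5-EV, and gave the other 3. The vector's promoter is not given in the sources used here, nor whether each line was a clone or a pool. Nor is it stated that the 3 libraries of a group came from separate cultures. The p-values therefore measure only the spread between these libraries, which may be technical.

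Hepatocytes take up bile acids, drugs and hormone conjugates from blood through SLC carriers in the basolateral membrane. They export them into bile through ABC pumps and proton exchangers in the canalicular membrane, or back to blood through basolateral pumps. Several ABC proteins of the A and G subfamilies move cholesterol and phospholipid, while ABCG2 exports drugs and conjugates. Other ABC proteins work in peroxisomes, mitochondria or lysosomes, or serve translation without transporting anything.

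The gene named in the labels went against them. ZFP64 stood at 35.0, 35.6 and 31.5 CPM (counts per 1000000, scaled by TMM) in the ZFP64-OE-labelled libraries, against 142, 160 and 138 CPM in the control-labelled ones. It was lower in the first group, with a log2 fold change of -2.11 ± 0.0867 (standard error). Its adjusted p was 2.31e-12 under the quasi-likelihood test of edgeR, Benjamini-Hochberg adjusted over all tested genes, which is the test used throughout. Groups are therefore called by their labels, and every direction gives the ZFP64-OE label over the control label.

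Library totals ran between 35109227 and 39739674 counts in the ZFP64-OE-labelled libraries and between 26468949 and 37466920 in the control-labelled ones. The first principal component held 39.4% of the variance and separated the labels, and the second held 23.8% and set control replicate 1 apart. Hepatocyte markers came to between 16900 and 22500 CPM in the ZFP64-OE-labelled libraries, against between 13700 and 19200 CPM in the control-labelled ones. Of 10 such markers 9 were tested, ALB, APOB and FGB rose, APOA1 and SERPINA1 fell, and TTR had at most 3 counts in any library. APOB was the largest part of the sums, at 11200 to 16200 CPM, against 7230 to 10800 CPM in controls. The 6 biliary markers summed to between 80.0 and 90.4 CPM, against between 105 and 120 CPM in controls, with KRT7, KRT19 and SOX9 lower and CFTR higher. Of 8 macrophage markers LYZ fell and made up nearly all of a sum of 319 to 387 CPM, against 521 to 573 CPM in controls, while C1QA and PTPRC were at 0. The 6 fibroblast markers summed to between 6.23 and 8.05 CPM, against between 9.37 and 10.8 CPM in controls, with COL3A1 lower and COL1A2 at 0. The 5 endothelial markers summed to between 3.73 and 5.86 CPM, against between 12.9 and 13.2 CPM in controls, most of it from PECAM1. PECAM1 was lower, and KDR and TEK were at 0. Of 5 kidney tubule markers 2 were tested, none was called, and UMOD was at 0. Their sums ran from 262 to 353 CPM, against 270 to 400 CPM in controls. LRP2 made up nearly all of these sums, at 261 to 352 CPM, against 269 to 399 CPM in controls. Sums of the biliary, macrophage, fibroblast and endothelial markers did not overlap between the labels, those of the hepatocyte and kidney markers did, and the part of any of them in the transporter results below was not tested. All libraries came from the PLC/PRF/5 line, so a marker's name does not mean that its cell type was present. In bulk libraries, fewer cells expressing a gene and less of its RNA per cell cannot be told apart.

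Enough reads for a test were present for 59 of the 89 members, among 19173 tested genes. At an adjusted p under 0.05, 7 members were higher, which is 11.9% of those tested, beside 1.78% of all tested genes. A single member was lower, 1.69% of those tested, beside 4.03% of all tested genes. In either direction 8 of the 59 were called, where all tested genes gave 5.81%. The genes that rose were SLC22A3, SLC22A10, ABCC2, ABCG2, ABCC5, ABCA8 and ABCA5, and the gene that fell was SLCO2B1. The other 51 tested members did not pass. Without control replicate 2 the higher calls numbered 4 (SLC22A3, ABCG2, ABCA8 and ABCA5), and limma on log2(FPKM + 0.1) made 2 (SLC22A3 and ABCG2). Log2 fold changes lay above 0 for 36 of the 59 members and below 0 for 23, with a median of 0.06, beside -0.0166 over all tested genes, and 39 lay within 0.3 of 0. The 3 libraries of each label did not overlap in CPM for 16 members that were higher, where all tested genes gave 9.17%, and for 4 that were lower, where they gave 12.8% (21.9% in either direction). Tested members were counted more deeply than most genes, with a median of 16.9 CPM against 10.1 CPM over all tested genes. They were also longer, at a median counted length of 6254 bases against 3970 bases over all tested genes, and 7837 bases for the members that rose. Across all tested genes, which are not independent replicates, the log2 fold change and log2 length had a Pearson r of 0.066 and a Spearman rho of 0.154. The part of length in the members' count was not tested.

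**Figure D1:**
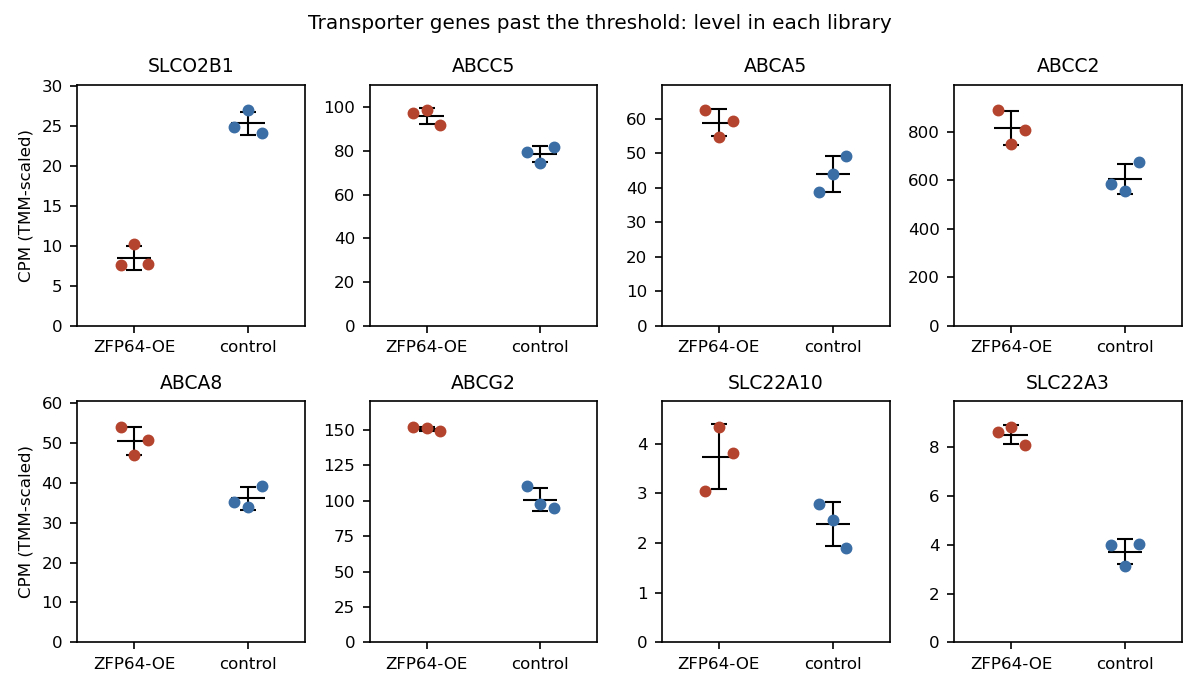
Level in CPM (vertical axes, linear from 0) of the 8 called transporter genes in each library labelled ZFP64-OE (left) and control (right), where points are libraries, wide lines are group means and error bars are SD (n = 3 each). The libraries of each label do not overlap for any of the 8, which were selected by the test on these same libraries. SLCO2B1 is the gene that is lower in the ZFP64-OE-labelled libraries.

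Promoter sequence at annotated starts is shown for the 3 called members that are best known as liver drug transporters. Counts are per gene, so which starts these cells use was not measured. Promoters came from RefSeq (GRCh38.p14), in which 6 of the 8 called members were matched, and each window is the 250 bases before a start site, 5′ to 3′ on the strand of the gene. ABCC2 has a single start in that table (chr10:99782390-99782639, plus strand). ABCG2 has 5 starts and SLCO2B1 has 2, and the start nearest the principal transcript was taken (chr4:88158910-88159159, minus strand, and chr11:75150857-75151106, plus strand). Capitals mark matches, on either strand, to the motifs searched.
ABCC2: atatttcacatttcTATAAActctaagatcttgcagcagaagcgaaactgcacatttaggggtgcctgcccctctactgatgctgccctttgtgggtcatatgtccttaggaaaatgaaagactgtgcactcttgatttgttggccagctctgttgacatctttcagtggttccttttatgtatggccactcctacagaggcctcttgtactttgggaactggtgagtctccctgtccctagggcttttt
ABCG2: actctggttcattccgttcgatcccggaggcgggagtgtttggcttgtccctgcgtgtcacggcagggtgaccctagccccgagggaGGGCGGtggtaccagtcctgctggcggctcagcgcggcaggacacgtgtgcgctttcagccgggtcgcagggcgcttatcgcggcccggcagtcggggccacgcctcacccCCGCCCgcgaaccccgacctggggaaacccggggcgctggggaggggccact
SLCO2B1: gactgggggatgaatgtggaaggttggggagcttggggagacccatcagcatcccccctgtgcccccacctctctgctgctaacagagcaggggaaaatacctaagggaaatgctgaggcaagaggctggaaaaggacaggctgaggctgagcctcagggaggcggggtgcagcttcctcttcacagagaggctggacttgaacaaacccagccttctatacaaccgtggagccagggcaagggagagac
The letters searched were the GC box GGGCGG, present in 42.5% of all 34943 promoter windows of this length, the TATA box TATAAA (10.8%), the nuclear receptor core AGGTCA (12.1%), the antioxidant response core TGACNNNGC (10.9%), the NR5A2 extended core TCAAGGNCA (1.02%) and the HNF1 core GTTAATNAT (0.727%). The ABCG2 window held the GC box at positions -163 and -52 relative to its start. The ABCC2 window held TATAAA at position -236, and the SLCO2B1 window held none of these letter strings. The windows differed in base composition, with 71.2% G and C for ABCG2, 45.6% for ABCC2 and 58.4% for SLCO2B1, beside a median of 58% over all windows. A match is a description of letters and not a binding site.

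Canalicular export held the most strongly expressed drug pumps, and ABCC2 and ABCG2 rose. ABCC2 (MRP2, chromosome 10, 99782640 to 99852594, plus strand) exports bilirubin glucuronides and glutathione conjugates into bile and is the member with the highest level per length. It had 888, 749 and 809 CPM in the ZFP64-OE-labelled libraries, against 584, 557 and 674 CPM in the control-labelled ones. All libraries of the first label were higher than all of the second, although the spread within each label was wide. The log2 fold change was 0.43 ± 0.105 (standard error), a 1.35-fold difference, with an adjusted p of 0.0162. The call was lost without ZFP64-OE replicate 1 (adjusted p = 0.108) and without control replicate 2 (adjusted p = 0.115). Strand use in counting is not given, so reads of the pseudogene NANOGP6, which lies on the other strand within ABCC2 and had at most 119 counts in a library, cannot be told apart.

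ABCG2 (BCRP, chromosome 4, 88090264 to 88231322, minus strand) exports sulfate conjugates, urate and many anticancer drugs. Its libraries labelled ZFP64-OE held 152, 151 and 149 CPM, against 110, 97.4 and 94.7 CPM in the control-labelled ones. The first 3 values lay close together and well above every control library. The log2 fold change was 0.58 ± 0.0813 with an adjusted p of 7.88e-05, and ABCG2 was called under all 13 alternative settings.

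The remaining canalicular exporters did not pass the test. ABCB1 (P-glycoprotein, the broad multidrug pump) had 25.7, 26.5 and 22.1 CPM in the ZFP64-OE-labelled libraries and 26.7, 19.9 and 18.5 CPM in the control-labelled ones. Control replicate 1 reached the highest value of all 6, so the labels overlapped, and the log2 fold change was 0.20 with an adjusted p of 0.392. Without that library ABCB1 was called (adjusted p = 0.0364). SLC47A1 (MATE1, a proton-coupled exporter of organic cations) had 5.59, 5.32 and 5.94 CPM in the ZFP64-OE-labelled libraries and 4.47, 4.63 and 5.28 CPM in the control-labelled ones, without overlap and without passing (log2 fold change 0.23, adjusted p = 0.385). ABCB11 (BSEP), the canalicular bile salt pump, was close to silent under both labels, with 1, 8 and 6 counts in the ZFP64-OE-labelled libraries, against 0, 2 and 2 counts in the control-labelled ones, too few to test. Summed over the 6 canalicular members, the deposited FPKM (fragments scaled by gene length and library total) came to 135 ± 8.85 in the ZFP64-OE-labelled libraries, against 101 ± 9.62 in the control-labelled ones (SD, n = 3 each), and ABCC2 made up 76.8% of it.

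**Figure D2:**
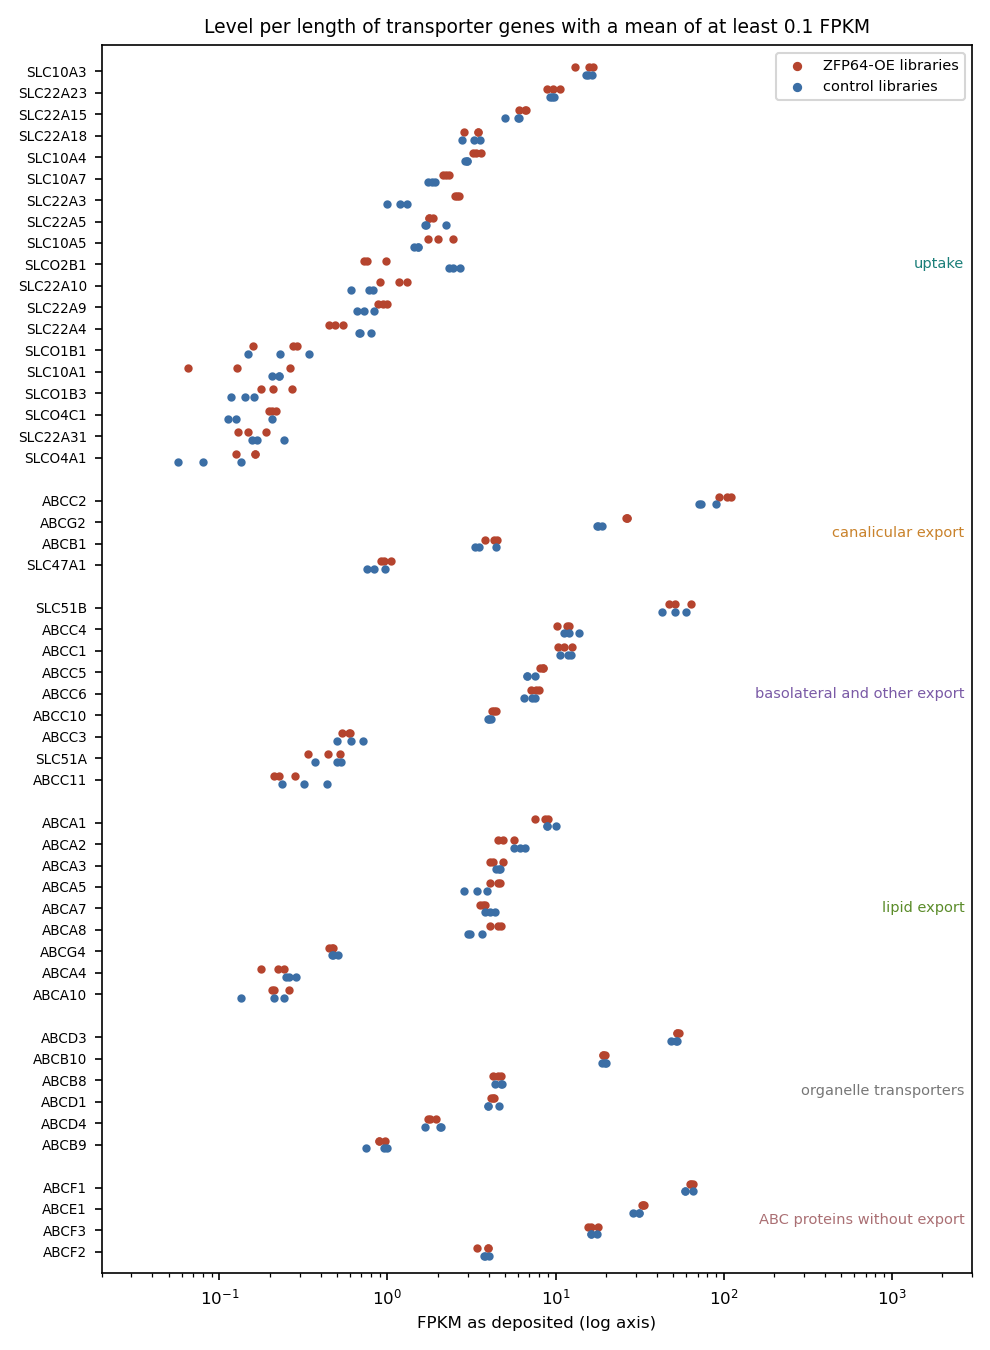
FPKM as deposited (horizontal log axis) of transporter genes with a mean of at least 0.1 FPKM, 1 point per library, ordered by level within each role group. ABCC2 is the highest at 103 FPKM in ZFP64-OE-labelled libraries and 78.3 FPKM in the control-labelled ones, and the bile acid importer SLC10A1 lies below 1 FPKM.

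Among uptake carriers SLC22A3 and SLC22A10 rose and SLCO2B1 fell, out of 23 tested. SLCO2B1 (OATP2B1, chromosome 11, 75100563 to 75206549, plus strand) takes up steroid sulfates and several statins. It had 7.59, 10.2 and 7.67 CPM in the ZFP64-OE-labelled libraries, against 24.8, 26.9 and 24.1 CPM in the control-labelled ones. The labels stood far apart compared with the spread inside either. The log2 fold change was -1.57 ± 0.113, a 2.97-fold decrease, with an adjusted p of 9.08e-09, and the call held in all 13 alternative settings. The antisense gene AP001972.4 overlaps it and had at most 12 counts in a library. SLCO2B1 carried 66.2% of the summed FPKM of the 11 SLCO members, whose sum was 1.74 ± 0.238 FPKM in the ZFP64-OE-labelled libraries and 3.25 ± 0.357 FPKM in the control-labelled ones.

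SLC22A3 (OCT3, chromosome 6, 160348268 to 160452581, plus strand) carries monoamines, metformin and other organic cations. In the libraries labelled ZFP64-OE it had 8.63, 8.84 and 8.09 CPM, against 4.0, 3.12 and 4.03 CPM in the control-labelled ones. Every value of the first label was above every value of the second. Its log2 fold change was 1.2 ± 0.136, a 2.30-fold difference, with an adjusted p of 5.75e-06, and it was called in all 13 alternative settings. Its neighbour SLC22A2, the cation carrier of kidney tubules, had at most 1 count in a library.

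SLC22A10 (chromosome 11, 63137867 to 63369718, plus strand) is an organic anion transporter family member of liver. It had 3.04, 4.34 and 3.82 CPM in the ZFP64-OE-labelled libraries, against 2.78, 2.47 and 1.91 CPM in the control-labelled ones. The lowest library of the first label was only a little above the highest of the second, and the log2 fold change was 0.65 ± 0.185 with an adjusted p of 0.042. That call was the least stable of the 8, holding in 6 of 13 alternative settings. It was lost without ZFP64-OE replicate 2 (adjusted p = 0.208), ZFP64-OE replicate 3 (adjusted p = 0.0598), control replicate 2 (adjusted p = 0.118) or control replicate 3 (adjusted p = 0.135). It was also lost under a filter of a mean of 1 CPM (adjusted p = 0.0559) and under limma-voom (adjusted p = 0.0506). SLC22A25, on the other strand, overlaps SLC22A10 over 65877 bases, and reads of this cluster of near copies (SLC22A9, SLC22A10, SLC22A24, SLC22A25) may have been shared between genes. SLC22A9 (OAT7), the next gene along, averaged 2.26 CPM in ZFP64-OE-labelled libraries and 1.72 CPM in the control-labelled ones (log2 fold change 0.39, adjusted p = 0.262).

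The carriers that define hepatocyte uptake in liver had low counts under both labels. SLC10A1 (NTCP), the sodium-coupled bile acid importer and the entry receptor of hepatitis B virus, had 0.133, 0.540 and 0.255 CPM in the ZFP64-OE-labelled libraries and 0.471, 0.442 and 0.394 CPM in the control-labelled ones. The labels overlapped, and the log2 fold change was -0.47 with an adjusted p of 0.615. SLCO1B1 and SLCO1B3, which take up bilirubin, bile acids and statins, had log2 fold changes of 0.03 (adjusted p = 0.976) and 0.69 (adjusted p = 0.231), each with under 1 CPM in every library. SLC22A7 (OAT2), a carrier of organic anions and nucleotides, had 1, 0 and 3 counts in the ZFP64-OE-labelled libraries and 2, 12 and 1 counts in the control-labelled ones. SLC22A7 had too few counts for a test, the 3 others were tested and did not pass, and SLCO1B3 alone of them did not overlap between the labels. The uptake carriers with the highest level per length were SLC10A3, SLC22A23 and SLC22A15, the first 2 of which have no well-defined substrate. SLC10A3 had 15.2 ± 1.89 FPKM in ZFP64-OE-labelled libraries and 15.7 ± 0.711 FPKM in the control-labelled ones. SLC22A23 had 9.75 ± 0.883 FPKM under the ZFP64-OE label and 9.54 ± 0.207 FPKM under the control label. SLC22A15 had 6.45 ± 0.298 FPKM under the ZFP64-OE label and 5.67 ± 0.567 FPKM under the control label (SD, n = 3 each). None of the 3 was called, with adjusted p-values of 0.945, 0.735 and 0.133.

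**Figure D3:**
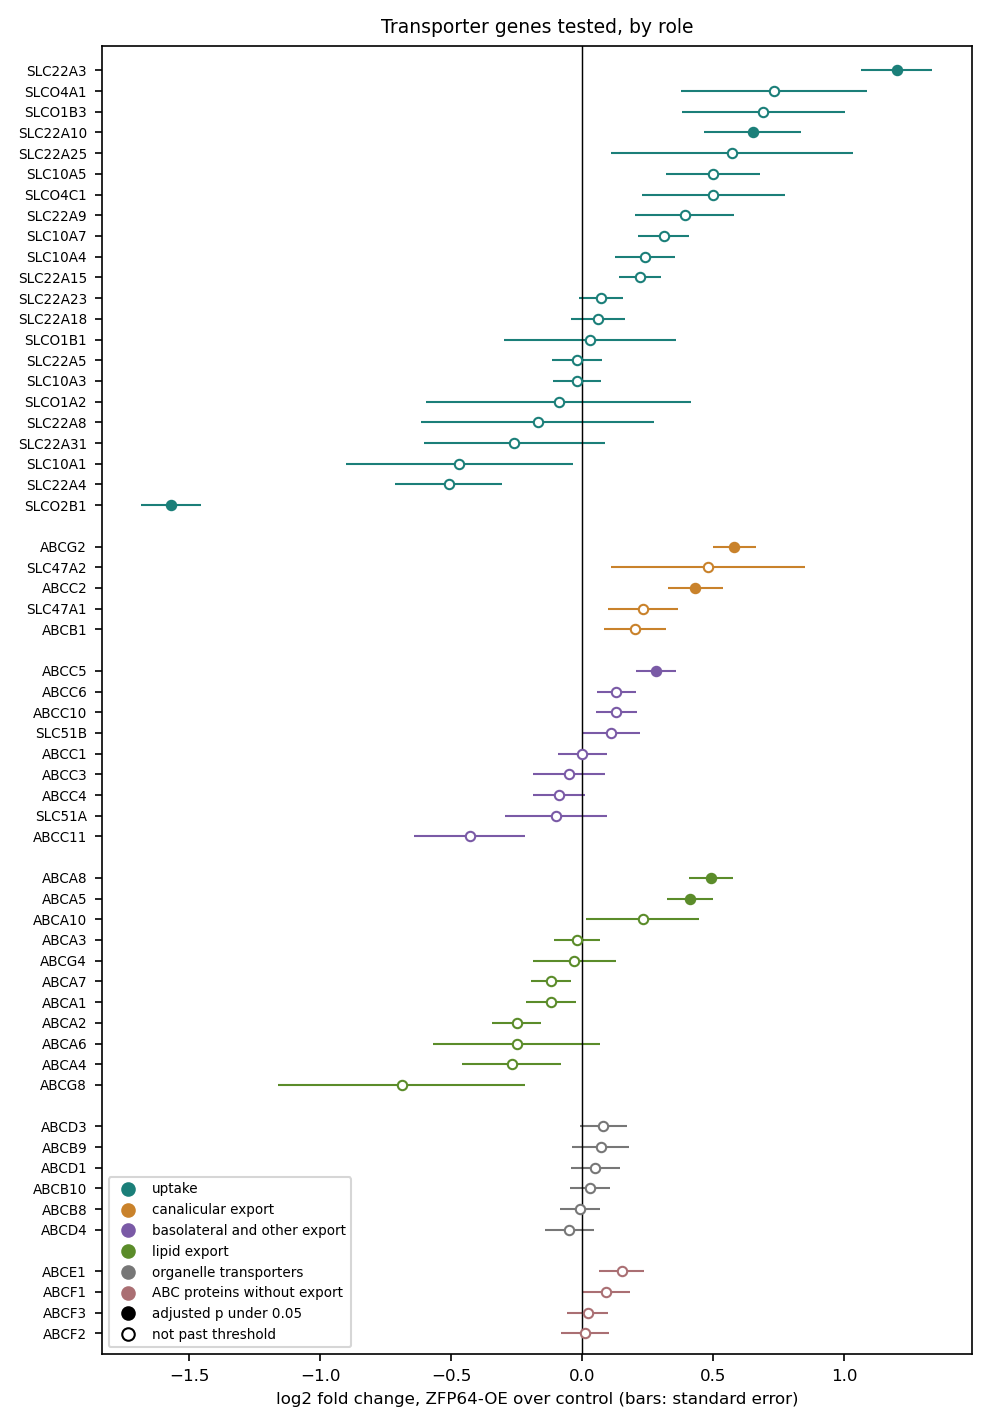
Log2 fold change (horizontal axis, libraries labelled ZFP64-OE over control) with its standard error for tested transporter genes by role group, where filled points passed an adjusted p of 0.05. SLCO2B1 at -1.57 and SLC22A3 at 1.2 lie farthest from 0 among the filled points, and organelle transporters lie between -0.05 and 0.08.

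Of 9 tested genes of basolateral and other export, ABCC5 rose and the other 8 did not pass. ABCC5 (MRP5, chromosome 3, 183919934 to 184018015, minus strand) exports cyclic nucleotides and nucleotide analogues. It had 97.1, 98.5 and 91.7 CPM in the ZFP64-OE-labelled libraries, against 79.7, 74.6 and 81.7 CPM in the control-labelled ones. The labels did not overlap, but the difference was the smallest among the called members, with a log2 fold change of 0.28 ± 0.0765, a 1.22-fold difference, and an adjusted p of 0.0316. It was lost without ZFP64-OE replicate 1 (adjusted p = 0.111), ZFP64-OE replicate 2 (adjusted p = 0.165) or control replicate 2 (adjusted p = 0.187).

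The bile acid exporter of the basolateral membrane is a dimer of SLC51A and SLC51B, and its subunits were unequal in these cells. SLC51B had 54.2 ± 8.74 FPKM in the ZFP64-OE-labelled libraries and 51.4 ± 8.59 FPKM in the control-labelled ones, while SLC51A had 0.432 ± 0.0928 FPKM under the ZFP64-OE label and 0.469 ± 0.0842 FPKM under the control label (SD, n = 3 each). The counted lengths, 924 bases for SLC51B and 5263 bases for SLC51A, widen this gap in FPKM. In CPM, SLC51B averaged 50.6 and SLC51A 2.3 in the ZFP64-OE-labelled libraries, and 46.8 and 2.43 in the control-labelled ones. Neither subunit was called (log2 fold change 0.11 with adjusted p = 0.654 for SLC51B, and -0.10 with adjusted p = 0.848 for SLC51A). SLC51A lies across PCYT1A, a gene on the other strand with 3420 to 6153 counts in each library, so part of its reads may not be its own. Among the pumps that send conjugates back to blood, ABCC3 (MRP3) had a log2 fold change of -0.05 (adjusted p = 0.899) and ABCC4 (MRP4) of -0.09 (adjusted p = 0.68). ABCC1 (MRP1), a pump of glutathione conjugates, had -0.00 (adjusted p = 0.998), and ABCC6, through which hepatocytes release ATP, had 0.13 (adjusted p = 0.366). ABCC6 has near-identical pseudogene copies, so its counts are uncertain.

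Lipid export held a pair of genes that rose, ABCA8 and ABCA5, among 11 tested. Both lie on chromosome 17 in the run ABCA8, ABCA9, ABCA6, ABCA10 and ABCA5, all on the minus strand. ABCA8 (68867292 to 68955392), which takes part in cholesterol efflux, had 54.0, 46.9 and 50.6 CPM in the ZFP64-OE-labelled libraries, against 35.1, 33.9 and 39.3 CPM in the control-labelled ones. ABCA5 (69244311 to 69327244), a protein of lysosomes and late endosomes, had 62.4, 54.6 and 59.3 CPM in the ZFP64-OE-labelled libraries, against 38.9, 43.9 and 49.3 CPM in the control-labelled ones. Neither gene's labels overlapped. The log2 fold changes were 0.49 ± 0.0834 for ABCA8 (adjusted p = 0.000771) and 0.41 ± 0.0888 for ABCA5 (adjusted p = 0.00632). Between them, ABCA10 had 0.23 (adjusted p = 0.621) and ABCA6 -0.25 (adjusted p = 0.742), each at or under 2.24 CPM in every library, and ABCA9 had at most 7 counts. These 5 genes belong to the same subfamily, and how alike their sequences are was not measured. ABCA10, with at most 84 counts in a library, and ABCA5 share 536 bases on the same strand. Some reads may therefore have been split between genes of this run.

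None of the best-known cholesterol exporters of the liver was called. ABCG5, ABCG1 and the phospholipid exporter ABCB4 had too few counts to test. ABCA1, which loads apolipoprotein A-I with cholesterol and phospholipid, had 104, 99.7 and 84.4 CPM in the ZFP64-OE-labelled libraries and 119, 97.5 and 96.1 CPM in the control-labelled ones (log2 fold change -0.12, adjusted p = 0.561). ABCA2 and ABCA3, the next in level per length and known from brain lipid handling and from lung surfactant, had log2 fold changes of -0.25 (adjusted p = 0.14) and -0.02 (adjusted p = 0.927). The sterol exporter of bile is a dimer of ABCG5 and ABCG8, and both genes were barely read. ABCG8 had a log2 fold change of -0.69 (adjusted p = 0.461), and ABCG5 had 7, 8 and 4 counts in ZFP64-OE-labelled libraries and 3, 13 and 7 counts in the control-labelled ones. ABCB4 (MDR3), which brings phosphatidylcholine into bile, had 0, 1 and 1 counts in ZFP64-OE-labelled libraries and 3, 2 and 0 counts in the control-labelled ones. ABCG1, a partner of ABCA1 in cholesterol efflux, had at most 8 counts. Summed over lipid export, FPKM came to 31.5 ± 1.03 in the ZFP64-OE-labelled libraries and 31.9 ± 0.361 in the control-labelled ones (SD, n = 3 each).

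The groups of organelle transporters and of ABC proteins that export nothing gave no call among 7 and 4 tested genes. All ABCA genes were placed under lipid export, including the called ABCA5, whose protein lies in lysosomes and late endosomes. Of the first, ABCD3, which brings fatty acids and bile acid precursors into peroxisomes, had 53.2 ± 0.776 FPKM in ZFP64-OE-labelled libraries and 51.3 ± 2.16 FPKM in the control-labelled ones. ABCB10, a mitochondrial transporter of haem metabolism, had a log2 fold change of 0.03 (adjusted p = 0.904). Of the second, ABCF1 and ABCF3, which act in translation, had 0.09 (adjusted p = 0.644) and 0.02 (adjusted p = 0.94), and ABCE1, which recycles ribosomes, had 0.15 (adjusted p = 0.363).

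The 30 members that were not tested had at most 16 counts in any library, and 24 members had no more than 10 counts in every library. ABCB5, ABCC9, SLC22A6 and SLC22A12 were at 0 in all 6 libraries. A count of 0 allows up to 3 counts, which is between 0.0755 and 0.113 CPM in these libraries. Such limits cover counting error only. SLC22A6 and SLC22A12 are transporters of kidney tubules, where they take up organic anions and urate.

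**Figure D4:**
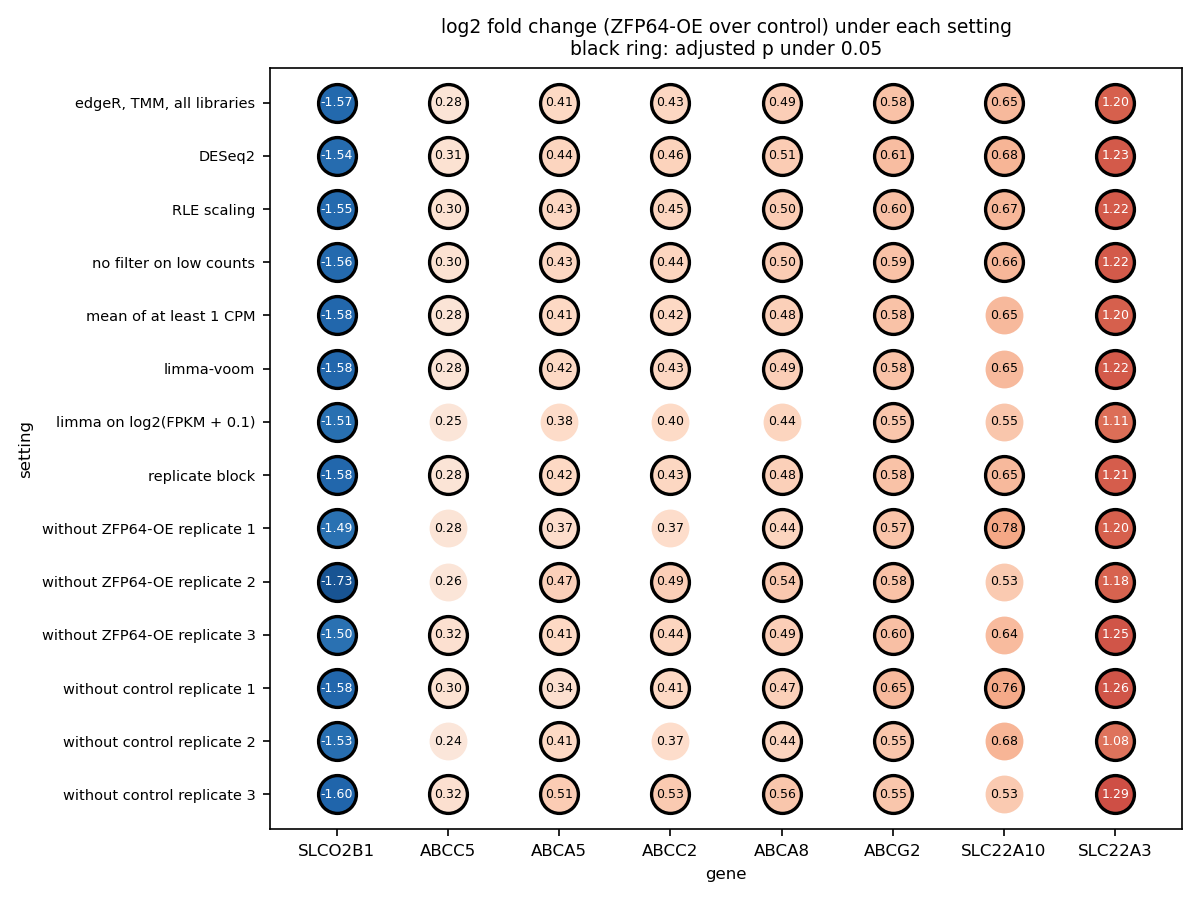
Log2 fold change (libraries labelled ZFP64-OE over control) of the 8 called members (columns) under the reported fit and 13 alternatives (rows), with a black ring where the adjusted p was under 0.05. SLCO2B1, SLC22A3 and ABCG2 carry a ring in every row, SLC22A10 in the fewest, and no value changes sign.

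The genes that make bile acids, regulate these transporters and build the canalicular membrane were read from a list of 50 genes that holds no member. Of 42 tested, 3 were higher, 1 was lower and 38 did not pass, with a median log2 fold change of 0.02. Over all tested genes 1.78% were higher, 4.03% were lower and 5.81% were called in either direction. The 3 that rose were NR0B2, NR5A2 and ACOX2. NR0B2 (SHP), the nuclear receptor through which bile acids repress their own synthesis, had 15.2, 18 and 18.2 CPM in ZFP64-OE-labelled libraries, against 8.82, 11.7 and 9.92 CPM in the control-labelled ones. NR5A2 (LRH-1), an activator of bile acid synthesis genes and a target of repression by NR0B2, had 62.0, 61.1 and 56.5 CPM in ZFP64-OE-labelled libraries, against 43.9, 39.4 and 42.7 CPM in the control-labelled ones. ACOX2, the peroxisomal oxidase that shortens the side chain of bile acid precursors, had 25.7, 28.4 and 27.9 CPM in ZFP64-OE-labelled libraries, against 18.3, 20.3 and 16.3 CPM in the control-labelled ones. None of the 3 overlapped between the labels. Log2 fold changes were 0.75 ± 0.114 for NR0B2 (adjusted p = 0.000209), 0.51 ± 0.0783 for NR5A2 (adjusted p = 0.000213) and 0.58 ± 0.0936 for ACOX2 (adjusted p = 0.00042), and each was called in all 13 alternative settings.

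FGFR4, the receptor through which FGF19 signals to lower bile acid synthesis, was lower, with 270, 298 and 270 CPM in ZFP64-OE-labelled libraries, against 369, 356 and 318 CPM in the control-labelled ones. Its log2 fold change was -0.32 ± 0.091 with an adjusted p of 0.0454. The call was lost without ZFP64-OE replicate 1 (adjusted p = 0.195), ZFP64-OE replicate 2 (0.0933), ZFP64-OE replicate 3 (0.103), control replicate 1 (0.0683) or control replicate 2 (0.152), and under RLE scaling (0.0687). CYP7A1, the rate-limiting enzyme of bile acid synthesis, had at most 1 count in a library. NR1H4 (FXR), the bile acid receptor that drives NR0B2 and ABCB11, had a log2 fold change of -0.27 (adjusted p = 0.316), and HNF4A, a master factor of hepatocyte genes, had -0.04 (adjusted p = 0.87). By group, 1 of 12 tested synthesis genes and 2 of 15 tested regulators were higher, 1 regulator was lower, and none of the 15 canalicular membrane genes was called.

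**Figure D5:**
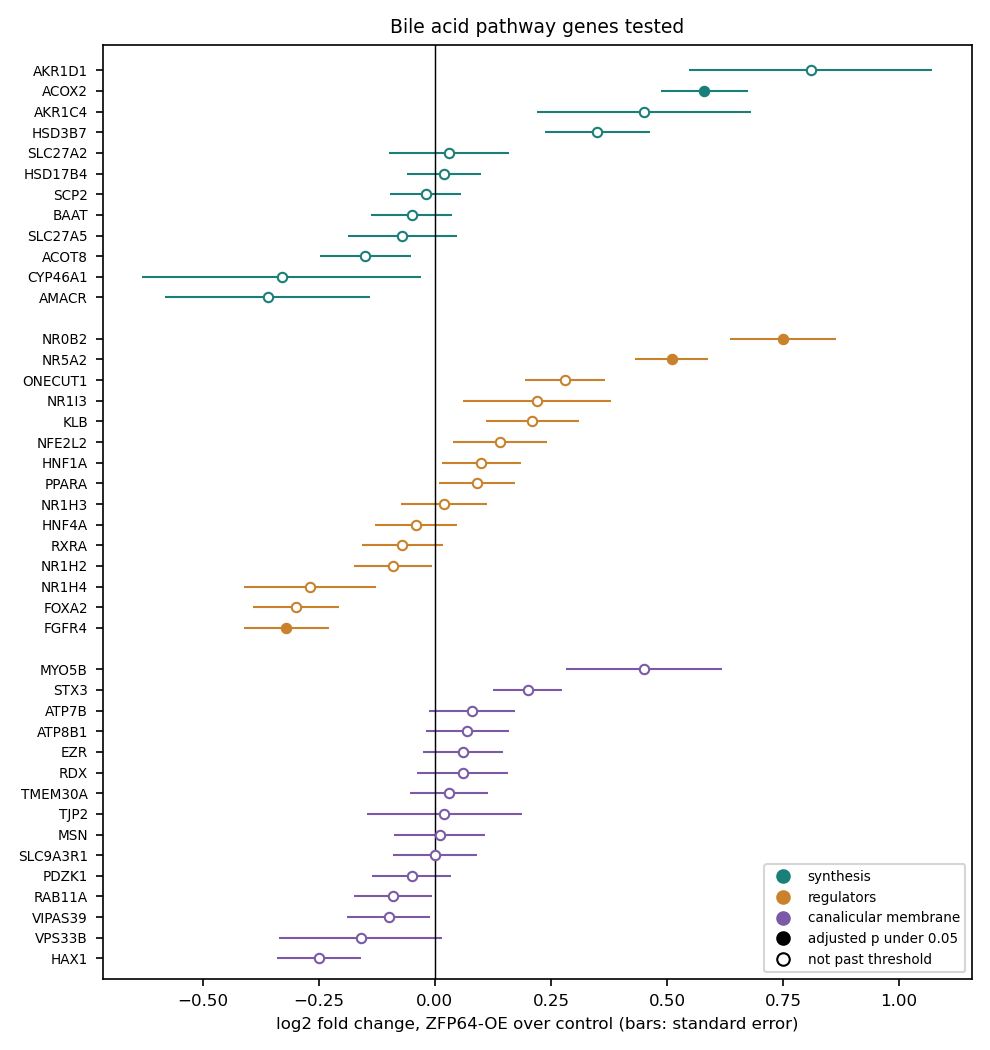
Log2 fold change (horizontal axis, libraries labelled ZFP64-OE over control) with its standard error for the 42 tested bile acid pathway genes, coloured by group and filled where the adjusted p was under 0.05. NR0B2, NR5A2 and ACOX2 are filled to the right of 0 and FGFR4 to the left, at -0.32.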

How the data were processed

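Total RNA of PLC/PRF/5 cells was made into libraries with an Illumina TruSeq kit, per the labels' protocols. The submitters' processing notes name HISAT2 and GRCh38. The version of the aligner, the counter, the annotation and the strand setting were not given in the sources used here. The deposited table of raw counts per gene was used for tests, and the FPKM values that the authors deposited, counts divided by gene length and library total, were used for levels between genes.

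All 6 libraries were grouped by label, 3 in each group. Counts were fitted with edgeR 4.0.16 in R 4.3.3 (robust quasi-likelihood, TMM scaling, filterByExpr with a minimum count of 10 and total of 15), group being the only term. This kept 19173 genes, over all of which p-values were adjusted, and calls were made at 0.05. Replicate variation (biological coefficient) was 0.0857. Standard errors are log2 fold changes over the root of the F statistic. The fit was tested on simulated data.

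Library totals of 26468949 to 39739674 counts set the precision. Within groups, libraries differed by a chi-square of at least 10.2 per gene, and each was counted as a separate sample. That value does not tell separate cultures from separate preparations of the same RNA. Gene positions are those of GENCODE v29 on GRCh38, found for all 89 members. NHERF1 is listed under its older symbol SLC9A3R1.

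Members and lists were chosen with earlier results of these data known. Genes named are all called members, textbook liver transporters, the 3 with the highest mean FPKM in each role group, and called bile acid pathway genes. A few members are counted in the totals but not reported by name here. Marker genes are given as checks. Other genes with values (SLC22A2, ABCA6, ABCA9, ABCA10, members at 0, CYP7A1, NR1H4, HNF4A, and members that single settings added) fall outside that rule and were chosen after their values were seen. Alternatives were DESeq2 1.42.0, RLE scaling, no filter, a mean of at least 1 CPM, limma 3.58.1 (voom, and on log2 of FPKM + 0.1), the replicate number as a block, and leaving out each of the 6 libraries in turn.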

Additional observations from a re-analysis of the deposited data

How the results depend on the processing

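In 489 refits of the 38 tested genes named by the rule, over 13 settings, 436 kept their direction and their side of the threshold, 22 lost the call and 2 gained it. The other 29 changed sign, in 11 genes that were not called, with 0 past the threshold and none beyond 0.16 in size. With all libraries these were ABCA3 (0.0), ABCC1 (0.03) and SLC10A3 (0.01) under DESeq2, ABCC1 under RLE scaling (0.02) and no filter (0.01), and ABCB10 (-0.01) and ABCF3 (-0.02) on log2(FPKM + 0.1). With each library left out, log2 fold changes ran from -0.11 to 0.02 for ABCA3, -0.01 to 0.08 for ABCB10, -0.09 to 0.08 for ABCC1, -0.13 to 0.08 for ABCC3, -0.17 to 0.03 for ABCC4 and -0.02 to 0.05 for ABCF3. They ran from -0.07 to 0.07 for SLC10A3, -0.01 to 0.15 for SLC22A23, -0.22 to 0.06 for SLC51A, -0.0 to 0.22 for SLC51B and -0.16 to 0.34 for SLCO1B1. Members called were 7 higher and 1 lower in the reported fit, and also under DESeq2, RLE scaling and no filter. On log2(FPKM + 0.1), limma called 2 members higher, with ABCC2 (adjusted p = 0.123), ABCC5 (0.12), ABCA8 (0.0806), ABCA5 (0.189) and SLC22A10 (0.188) lost. The same setting gave 113 genes higher and 357 lower over all genes, against 342 and 772 in the reported fit, and 2 bile acid pathway genes lower. RLE scaling gave 0 bile acid pathway genes lower (FGFR4 lost), and no filter gave 518 genes higher over all genes. DESeq2 split all genes into 455 higher and 599 lower. Leaving out each library in turn gave 4 to 8 members higher (4 without control replicate 2) and 1 lower, 160 to 585 of all genes higher and 427 to 1011 lower, and 3 to 4 bile acid pathway genes higher and 0 to 2 lower. The cause of these changes was not tested. The labels do not say whether same-numbered libraries were made together. Their deviations from the group means had correlations of 0.0183, 0.0198 and 0.0968, and 1 of 6 libraries correlated best with its own number. With the replicate block, 8 members were higher and 2 lower (SLC10A7 and ABCA2 added), 749 of all genes higher and 1347 lower, and 5 bile acid pathway genes higher and 3 lower. Depth limits what can be said of the 30 untested members.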
